A study of Mus musculus with 20 samples.

Results

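The genes described here are 48 members of the TGF-beta and BMP signalling pathways, followed in RNA-seq libraries of the intervertebral disc of old mice. They were chosen by gene symbol from the families of ligands, latency proteins, receptors, secreted antagonists, SMADs and ID proteins. Earlier results of these data were known when the list was made. All 48 were found among the 51789 genes of the deposited table. TGF-beta is secreted in a latent form held by latent TGF-beta binding proteins, and the BMPs, GDFs and activins belong to the same ligand superfamily. Each ligand joins type I and type II receptors, which phosphorylate SMAD proteins that carry the signal to the nucleus with Smad4. In the disc, this signalling is known for its role in the making and upkeep of the matrix, and BMP signalling induces the ID genes.

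The disc has a gelatinous core, the nucleus pulposus (NP), and a fibrous ring around it, the annulus fibrosus (AF). The mice were BL6, aged 24 months at death, and had been injected intraperitoneally once a week for 6 months from 18 months of age. They received either MDL-800, a small-molecule activator of the deacetylase SIRT6, dissolved in DMSO, or DMSO alone as vehicle. Each combination of tissue and treatment was represented by 5 libraries, 20 in all, and the dosing history is shared by all groups apart from the compound itself. The tissue was dissected under a microscope, so neighbouring material can be carried along, and the labels do not give the sex of the animals. The labels also call the material primary cells, whereas the protocol describes dissected tissue. Nothing states that the libraries of a group came from separate mice, so p-values measure the spread between libraries, which may be technical in part. In bulk RNA of this kind, fewer cells of a type and less RNA per cell cannot be told apart.

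Values are FPKM, mapped fragments per length of transcript and per depth of the library, divided by a library scaling factor. Per-library values are listed in the order of the library numbers in the titles: 1, 2, 3, 5 and 6 for vehicle NP, 15, 18, 19, 20 and 22 for MDL-800 NP, 8, 9, 10, 12 and 13 for vehicle AF, and 25, 27, 28, 29 and 30 for MDL-800 AF. Differences and their standard errors (SE) are on the scale of log2(scaled FPKM + 1), which understates the change of low genes. A gene was called at an adjusted p below 0.05 from limma with Benjamini-Hochberg adjustment over all 16383 genes tested. Library depth, estimated from the steps of low values, was 12.7 to 22.3 M fragments.

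The tissue labels were checked against marker genes. Of the 8 NP markers tested, 7 were higher in vehicle NP and 1, Car12, was lower. The summed level of the 9 NP markers found was 25616 to 30792 scaled FPKM in vehicle NP against 2494 to 15088 in vehicle AF. Car3 was the largest part of this sum, with means of 20344 in vehicle NP and 4794 in vehicle AF. Vehicle AF library 9 gave the value of 15088, the other 4 lying between 2494 and 7106. Of the 7 AF markers, 6 were higher in vehicle AF. Fmod was not called, with means of 1001 in vehicle NP and 703 in vehicle AF. The summed level of the 7 was 786 to 1564 in vehicle NP and 1618 to 5202 in vehicle AF, where library 9 was the lowest. Markers of 9 neighbouring cell types were also measured, and all 55 that were tested were lower in NP in both tissue comparisons. Their summed levels in vehicle NP and vehicle AF were 195 to 2972 and 6939 to 18132 for neutrophils, 11.6 to 1254 and 1039 to 9155 for skeletal muscle, 3.58 to 7.74 and 45.6 to 111 for endothelium, and 60.2 to 173 and 680 to 1677 for bone. For red blood cells they were 39.7 to 157 and 565 to 1912, for B and plasma cells 155 to 941 and 1650 to 3918, for macrophages 41.8 to 94.8 and 253 to 501, for fat 1.38 to 8.71 and 110 to 201, and for nerve 10.8 to 22.5 and 86.9 to 1019. No marker was listed at 0 in all libraries. These levels move with every tissue difference given here, and their part in the results was not tested. Of these 55 markers, limma called 0 in either treatment comparison, with unadjusted p under 0.05 for 0 in NP and 2 in AF. The 6 markers of cartilage and growth plate did not share one direction, with 1 higher and 2 lower in vehicle NP, and their summed level was 1790 to 3548 in vehicle NP against 581 to 2152 in vehicle AF.

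The regions just upstream of 5 members show what sequence lies in front of genes of opposite tissue bias and of the one member called after treatment. Chrd and Fstl3 were higher in NP, Tgfb1 and Grem1 were higher in AF, and Ltbp3 was called between MDL-800 and vehicle in NP. The 250 bases before each start are from RefSeq on GRCm38.p6, at chr16:20732877-20733126 (plus strand), chr10:79777024-79777273 (plus strand), chr7:25686752-25687001 (plus strand), chr2:113758649-113758898 (minus strand) and chr19:5740650-5740899 (plus strand). They are written 5′ to 3′ in the direction of the gene, and capitals mark matches on either strand to GGCGCC, a GC-rich element described for BMP-type SMADs, and to the short SMAD box GTCT (AGAC on the other strand).
Chrd: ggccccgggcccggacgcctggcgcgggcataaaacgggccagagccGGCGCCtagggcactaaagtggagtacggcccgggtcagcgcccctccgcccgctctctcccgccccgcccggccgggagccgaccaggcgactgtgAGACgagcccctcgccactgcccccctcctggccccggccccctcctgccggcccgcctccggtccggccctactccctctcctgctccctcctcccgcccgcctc
Fstl3: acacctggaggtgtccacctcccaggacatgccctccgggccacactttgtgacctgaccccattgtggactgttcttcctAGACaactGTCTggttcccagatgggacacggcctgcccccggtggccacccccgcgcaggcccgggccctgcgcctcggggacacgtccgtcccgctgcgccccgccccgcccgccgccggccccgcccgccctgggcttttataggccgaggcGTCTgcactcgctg
Tgfb1: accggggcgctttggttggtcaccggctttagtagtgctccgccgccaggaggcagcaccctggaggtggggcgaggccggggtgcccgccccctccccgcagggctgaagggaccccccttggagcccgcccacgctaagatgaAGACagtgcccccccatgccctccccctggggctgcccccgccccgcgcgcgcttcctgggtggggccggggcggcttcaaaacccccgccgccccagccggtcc
Grem1: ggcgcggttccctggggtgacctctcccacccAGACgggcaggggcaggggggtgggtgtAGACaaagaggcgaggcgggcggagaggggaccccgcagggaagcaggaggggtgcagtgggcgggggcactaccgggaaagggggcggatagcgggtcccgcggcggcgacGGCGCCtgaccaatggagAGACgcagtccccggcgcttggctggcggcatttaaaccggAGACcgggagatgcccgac
Ltbp3: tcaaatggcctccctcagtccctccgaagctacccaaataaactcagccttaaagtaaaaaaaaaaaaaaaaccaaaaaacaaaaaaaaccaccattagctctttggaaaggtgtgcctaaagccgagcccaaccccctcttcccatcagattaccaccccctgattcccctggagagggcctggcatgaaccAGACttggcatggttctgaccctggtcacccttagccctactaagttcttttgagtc
Promoters were matched for 32 of the 48 members. These genes have 40 promoters in the table. GGCGCC occurred in 11 of the 40, 27.5%, against 9.59% of 32851 mouse promoters of the same length. The window of Chrd and that of Grem1 each held 1 such match, although the genes lay on opposite sides of the tissue comparison. The box GTCT or AGAC was found in 33 of the 40, 82.5%, against 82.9% of all promoters, and the palindrome GTCTAGAC, which holds the box on both strands, in 0 of the 40 against 0.167%. The median GC content was 66.6% over the member promoters and 52.4% over all, and a GC-rich motif is met more often in GC-rich windows. A match is a description of the letters in the window and not a binding site.

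Between NP and AF of vehicle-treated mice, 35 of the 48 members were called, 10 higher in NP and 25 lower. Over all tested genes 55.7% were called, against 72.9% of the members. The members higher in NP were 20.8%, beside a background of 21.8%, and those lower in NP were 52.1%, beside 33.9%. These shares depend on the scaling: with upper-quartile scaling 17 members were higher and 23 lower, beside 39.5% and 24.7% of all tested genes, and with quantile normalization 13 and 22, beside 39.5% and 24.0%. The 5 NP and 5 AF libraries did not overlap for 30 members, 62.5%, against 41.0% of tested genes. The median member differed by -0.51, and the median gene by -0.083. All 48 members passed the filter on low values, but 12 of them reached it through AF alone (Bmp2, Bmp3, Bmp4, Bmpr1b, Acvrl1, Gdf5, Gdf6, Gdf10, Gdf11, Inhbb, Nog and Fst). These had to differ between the tissues, so the count of lower members is a description. No member reached the filter through NP alone.

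**Figure D1:**
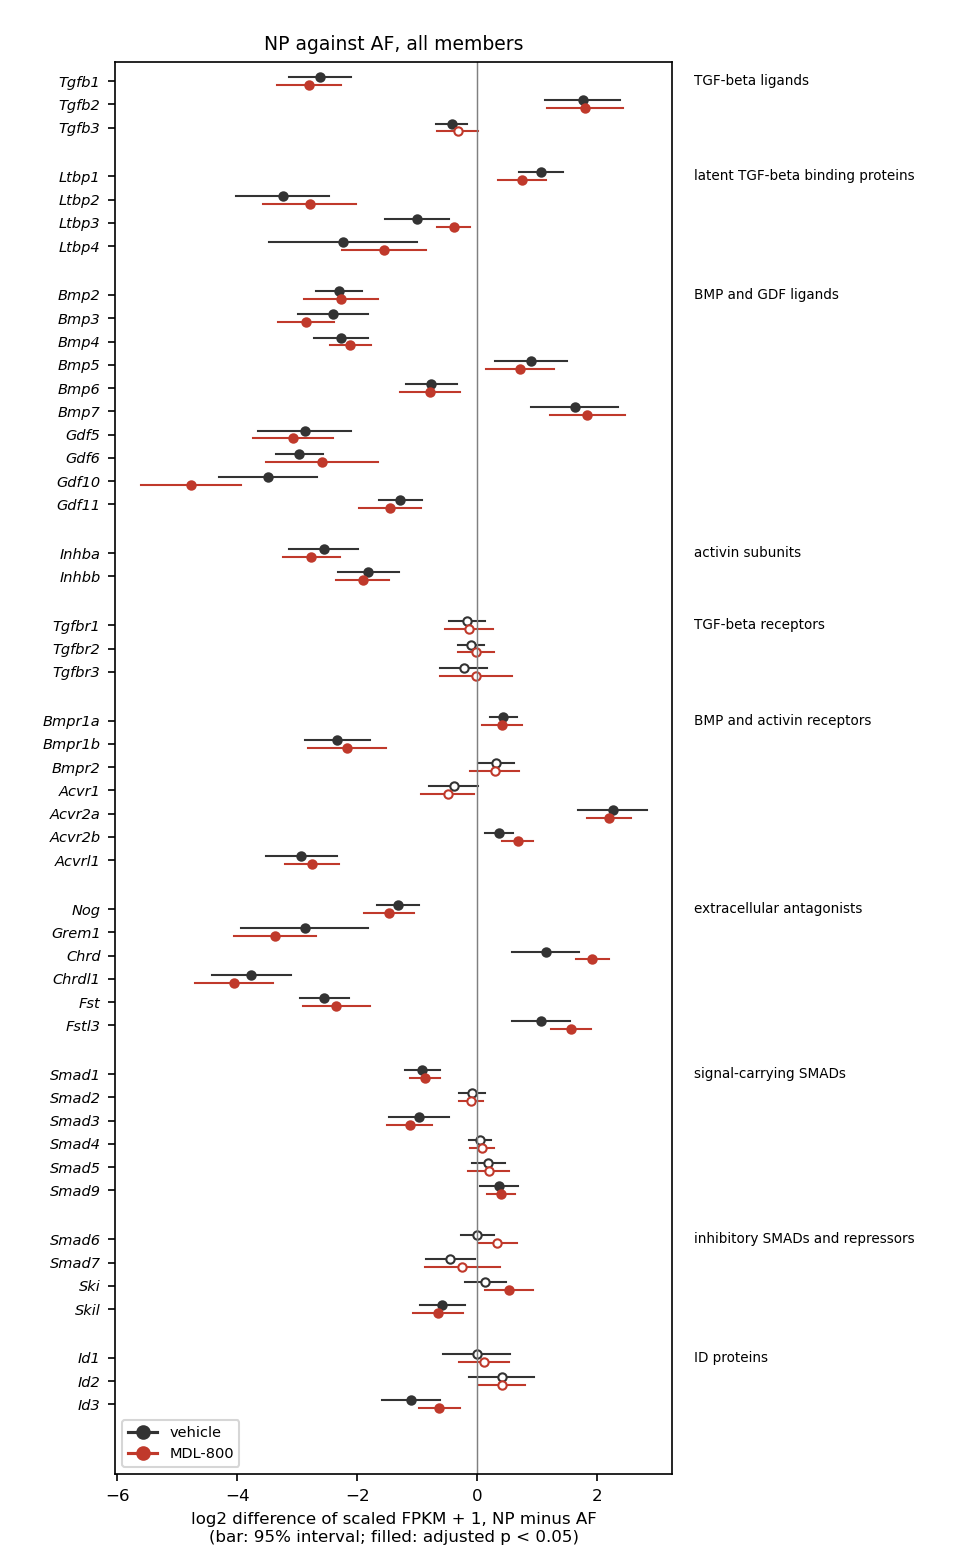
Difference of each of the 48 members between NP and AF (x axis, log2 of scaled FPKM + 1, NP minus AF; bars are 95% intervals from limma, filled points have an adjusted p under 0.05) in vehicle-treated (black) and MDL-800-treated (red) mice, grouped by role. Acvr2a, Tgfb2 and Bmp7 lie on the NP side and Chrdl1, Gdf10 and Ltbp2 on the AF side in both treatments.

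The 3 TGF-beta ligands were all called, beside 55.7% of all tested genes, and they divided between the tissues. Tgfb1 (chr7:25687002-25705077, mm10), the isoform most often studied in immune and matrix biology, was 11.7, 9.43, 7.07, 8.46 and 17.4 scaled FPKM in vehicle NP and 91.5, 56.0, 54.7, 61.0 and 89.5 in vehicle AF. Every NP library lay below every AF library. The group means were 10.8 ± 4.06 and 70.5 ± 18.4 (SD, n = 5 each), 6.52-fold higher in AF (log2 difference -2.62, SE 0.235, limma adjusted p = 1.25e-05). Tgfb2 (chr1:186622792-186705989), a close paralog that signals with the help of the co-receptor Tgfbr3, had the opposite bias. It was 40.1, 51.1, 82.3, 94.6 and 71.2 in vehicle NP and 11.1, 18.1, 31.5, 19.9 and 16.5 in vehicle AF, again with no overlap. Its mean of 67.9 ± 22.3 in NP was 3.49-fold that of 19.4 ± 7.50 in AF (SD, n = 5 each; log2 difference 1.76, SE 0.283, limma adjusted p = 0.000376). Tgfb3 (chr12:86056745-86079041) differed less, averaging 24.5 ± 1.24 in vehicle NP against 33.7 ± 5.80 in vehicle AF (SD over 5 libraries each; log2 difference -0.43, limma adjusted p = 0.00907). The call of Tgfb3 was lost with upper-quartile scaling and with quantile normalization. Tgfb2 made up 51.2 to 74.6% of the summed FPKM of the 3 ligands in vehicle NP and 7.74 to 25.4% in vehicle AF. Tgfb1 made up 6.28 to 15.5% in vehicle NP and 44.0 to 64.5% in vehicle AF. These shares, and those given further on, were chosen after the values had been seen.

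The latent TGF-beta binding proteins tether latent TGF-beta to the matrix, and all 4 were called, beside 55.7% of all tested genes. Ltbp1 (chr17:75005568-75392512), which binds the latent complex and fibrillin, was 137, 125, 91.5, 84.5 and 82.4 in vehicle NP and 53.0, 53.8, 38.9, 52.5 and 44.5 in vehicle AF. The groups did not overlap, and the log2 difference was 1.06 (SE 0.16, limma adjusted p = 0.000291). Within vehicle NP, libraries 1 and 2 lay above the other 3. The other binding proteins had the reverse bias. Ltbp2 (chr12:84783212-84876532), an elastic-fibre protein that does not bind latent TGF-beta, was 1.96, 2.52, 2.41, 0.582 and 2.50 in NP and 40.9, 10.7, 25.1, 28.1 and 39.3 in AF (log2 difference -3.24, limma adjusted p = 3.52e-05). Ltbp4 (chr7:27305136-27337692), which binds latent TGF-beta and serves elastic fibre assembly, was 0.268, 1.97, 8.06, 8.27 and 4.62 in NP and 24.8, 7.55, 28.7, 20.2 and 29.2 in AF. For Ltbp4 AF library 9 lay below NP libraries 3 and 5, so the groups overlapped (log2 difference -2.24, limma adjusted p = 0.00558). Ltbp3 (chr19:5740904-5758532), which also binds latent TGF-beta, had means of 11.4 ± 1.87 in NP and 25.3 ± 10.3 in AF (SD, n = 5 each; log2 difference -1.01, limma adjusted p = 0.00468). Ltbp1 alone made up 79.6 to 91.0% of the summed FPKM of Ltbp1 to Ltbp4 in vehicle NP and 31.9 to 60.6% in vehicle AF.

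Of the 10 BMP and GDF ligands, 2 were higher in vehicle NP and 8 lower, beside 21.8% and 33.9% of all tested genes. All the lower ones except Bmp6 passed the filter on low values through AF alone, so this count is a description. Bmp7 (chr2:172868012-172940321), a secreted BMP used in studies of disc repair, was 21.3, 18.1, 18.2, 17.2 and 21.2 in vehicle NP and 4.75, 15.6, 6.05, 3.29 and 3.05 in vehicle AF. AF library 9, the one with the highest summed NP markers, came closest to the NP libraries. The log2 difference was 1.63 (SE 0.33, limma adjusted p = 0.00164). Bmp5 (chr9:75775364-75900310), a ligand close to Bmp7 in sequence, averaged 23.4 ± 7.34 in vehicle NP and 12.3 ± 5.34 in vehicle AF (SD, n = 5 each; log2 difference 0.90, limma adjusted p = 0.0153), and the groups overlapped. An antisense gene, Gm26903, shares 46.7% of the exon bases of Bmp5, and the sources used here do not state whether counting used strand, so the level of Bmp5 is uncertain.

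The other BMP and GDF ligands were at low levels in NP. Bmp2 (chr2:133552159-133562885), an inducer of bone and cartilage, was 0.504, 0.392, 0.334, 0.325 and 0.454 in vehicle NP and 7.05, 3.38, 6.84, 6.26 and 7.00 in vehicle AF. Bmp4 (chr14:46383520-46390669), its close relative, was listed at 0 in NP libraries 1 and 2 and at 0.192, 0.069 and 0.109 in the others, beside 5.60, 3.65, 4.62, 2.16 and 5.82 in AF. Bmp3 (chr5:98854415-98884396), which opposes osteogenic BMPs, was 0.0643, 0.155, 0.293, 0.0296 and 0.415 in NP and 7.72, 3.69, 5.22, 2.67 and 9.20 in AF. None of these 3 reached 1 scaled FPKM in any vehicle NP library. Gdf5 (chr2:155941023-155945367), a joint-forming ligand linked to disc disease, was 0.0214, 0.0309, 1.08, 0.0493 and 1.22 in NP and 17.9, 6.85, 11.7, 4.65 and 9.18 in AF. Its exons share 40.3% of their bases with the antisense gene Gm15557, so its level is uncertain too. Gdf6 (chr4:9844372-9862345), a paralog of Gdf5, was 0.0857, 0.0619, 0.132, 0.0197 and 0.563 in NP and 10.8, 6.54, 9.35, 6.11 and 8.41 in AF. Gdf10 (chr14:33923587-33937983), also called BMP3b, was 0.182, 0.196, 0.779, 0.0197 and 0.968 in NP and 12.6, 8.08, 13.7, 11.0 and 40.6 in AF. AF library 13 held the highest value of Gdf10. Gdf11 (chr10:128882295-128891718), a relative of myostatin, was 0.0322, 0.186, 0.496, 0.0394 and 0.118 in NP and 2.03, 1.28, 1.55, 2.80 and 1.70 in AF. Bmp6 (chr13:38345107-38500302) was higher in AF by a smaller margin, with means of 3.60 ± 0.540 in NP and 7.02 ± 2.24 in AF (SD, n = 5 each; log2 difference -0.76, limma adjusted p = 0.00576). Bmp5 and Bmp7 together made up 83.0 to 92.9% of the summed FPKM of the 10 ligands in vehicle NP and 10.6 to 43.7% in vehicle AF.

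**Figure D2:**
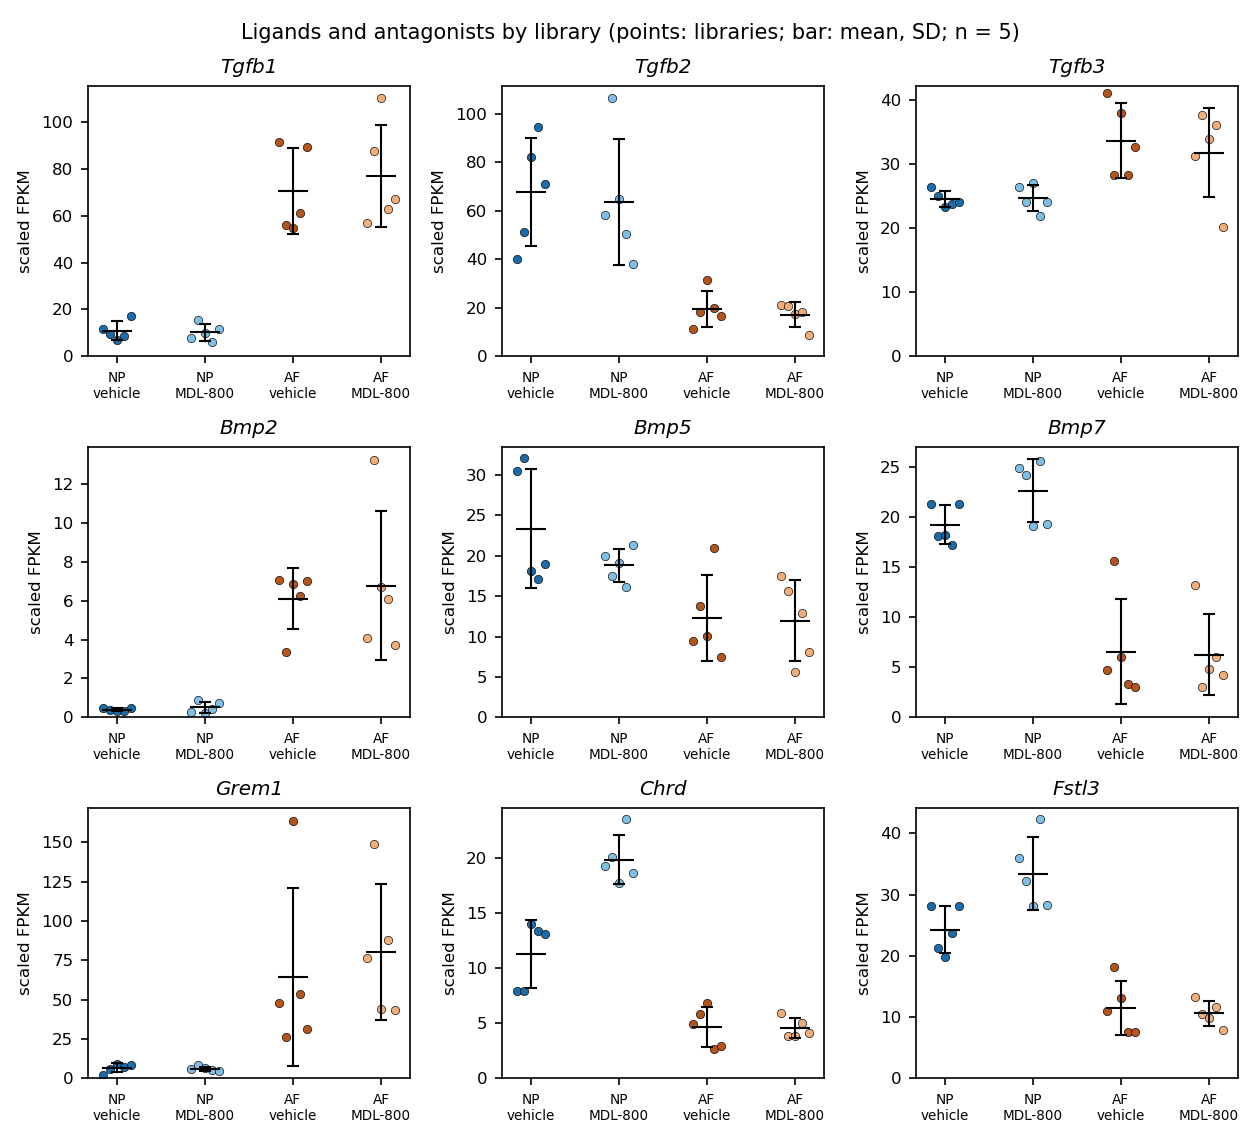
Scaled FPKM (y axis, linear, from 0) of Tgfb1, Tgfb2, Tgfb3, Bmp2, Bmp5, Bmp7, Grem1, Chrd and Fstl3 in the 4 groups, with a point for each library and bars for the mean and SD of 5 libraries. Tgfb2, Bmp7, Chrd and Fstl3 are higher in NP, and Tgfb1, Bmp2 and Grem1 higher in AF, with or without MDL-800.

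Both activin subunits were lower in NP, beside 33.9% of all tested genes, though Inhbb passed the filter on low values through AF alone. Inhba (chr13:16011851-16031621), the subunit of activin A, was 1.05, 0.928, 1.31, 1.01 and 2.02 in vehicle NP and 18.4, 5.68, 14.5, 12.6 and 13.4 in vehicle AF, a log2 difference of -2.56 (limma adjusted p = 2.44e-05). Inhbb (chr1:119415465-119422248), the subunit of activin B, was listed at 0 in NP library 1, lay between 0.0206 and 0.142 in the other 4, and was 1.81, 1.25, 4.25, 3.20 and 4.07 in AF.

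The type II receptor Acvr2a (chr2:48814109-48903269), which binds activins and several BMPs, had the largest log2 difference towards NP of the 48 members in vehicle-treated mice. It was 142, 94.4, 97.6, 82.5 and 93.2 in vehicle NP and 16.1, 31.8, 17.3, 30.3 and 12.2 in vehicle AF. Every NP library lay above every AF library, and the mean was 4.74-fold higher in NP (log2 difference 2.26, SE 0.258, limma adjusted p = 4.70e-05). Acvr2b (chr9:119402118-119434995), the second activin type II receptor, had means of 2.08 ± 0.297 in NP and 1.38 ± 0.0836 in AF (SD, n = 5 each; log2 difference 0.37, limma adjusted p = 0.0144). The type I BMP receptor Bmpr1a (chr14:34410734-34503341) had means of 63.9 ± 4.12 and 47.3 ± 6.21 (SD, n = 5 each; log2 difference 0.43, limma adjusted p = 0.00398). Its paralog Bmpr1b (chr3:141837136-142169425) ran the other way, with 0.536, 0.248, 0.263, 0.148 and 0.267 in NP and 5.32, 2.32, 8.17, 6.66 and 6.73 in AF. Acvrl1 (chr15:101128522-101145336), the type I receptor best known from endothelium, was 0.761, 0.103, 0.334, 0.187 and 1.12 in NP and 15.8, 6.58, 9.41, 7.26 and 14.6 in AF. The summed endothelial markers moved with it, as given above, and their part in its level was not tested. Among the type II receptors Acvr2a, Acvr2b and Bmpr2, Acvr2a made up 73.5 to 80.9% of the summed FPKM in vehicle NP and 31.8 to 63.5% in vehicle AF.

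The receptors for TGF-beta itself were not called in either tissue comparison. Tgfbr1, the type I receptor, had means of 27.9 ± 2.79 in vehicle NP and 31.8 ± 6.05 in vehicle AF (SD, n = 5 each), and the 95% interval of the log2 difference ran from -0.48 to 0.14. For Tgfbr2, the type II receptor, the means were 48.2 ± 5.42 and 51.6 ± 3.81 (SD, n = 5 each), with an interval from -0.31 to 0.12. The co-receptor Tgfbr3 had means of 68.5 ± 5.20 and 82.6 ± 22.5 (SD, n = 5 each) and an interval from -0.62 to 0.17. Bmpr2 and Acvr1, which serve BMPs and activins, were not called either, with log2 differences of 0.31 (limma adjusted p = 0.0759) and -0.39 (limma adjusted p = 0.0942). The lack of a call depended on the setting. In vehicle-treated mice, Tgfbr1, Tgfbr3 and Acvr1 were called when AF library 9 was left out. Tgfbr2 was called with upper-quartile scaling, and Bmpr2 with that scaling, with quantile normalization and without AF library 12. Equal levels in the tissues were therefore not shown.

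The 6 secreted antagonists were all called, and none had overlapping groups. Over all tested genes 55.7% were called and 41.0% had no overlap. Nog and Fst passed the filter on low values through AF alone, so they had to differ. Chrd (chr16:20733127-20742384), which encodes chordin, a protein that sequesters BMPs, was 7.92, 7.96, 14.0, 13.4 and 13.1 in vehicle NP and 4.96, 5.88, 6.87, 2.64 and 2.98 in vehicle AF (log2 difference 1.14, SE 0.25, limma adjusted p = 0.00285). Vehicle NP libraries 1 and 2 were the lowest of their group. Fstl3 (chr10:79777272-79782630), a follistatin-like protein that binds activin and myostatin, was 28.2, 21.3, 19.9, 23.7 and 28.2 in NP and 11.0, 18.2, 13.1, 7.58 and 7.63 in AF (log2 difference 1.07, SE 0.22, limma adjusted p = 0.00181). Prss57 on the other strand shares 47.3% of the exon bases of Fstl3, so its level carries the same uncertainty as Bmp5. Grem1 (chr2:113746164-113758646), encoding the BMP antagonist gremlin, was 2.09, 6.17, 9.29, 7.29 and 8.34 in NP and 48.0, 26.1, 164, 53.4 and 31.1 in AF (log2 difference -2.88, SE 0.48, limma adjusted p = 0.000476). AF library 10 held the highest antagonist value among the vehicle libraries. Chrdl1 (chrX:143285674-143394262), a chordin-like BMP antagonist, was 0.579, 1.65, 1.75, 0.661 and 2.56 in NP and 28.6, 17.0, 41.2, 28.6 and 46.7 in AF (log2 difference -3.77, SE 0.30, limma adjusted p = 7.29e-06). Nog (chr11:89300638-89302332), encoding noggin, was 0.397, 0.392, 0.425, 0.128 and 0.207 in NP and 3.48, 1.52, 2.17, 2.30 and 2.18 in AF. Fst (chr13:114452290-114458951), encoding follistatin, the activin-binding relative of Fstl3, was 0.150, 0.186, 0.273, 0.0888 and 0.168 in NP and 3.63, 4.88, 6.96, 6.24 and 8.60 in AF. Fstl3 and Fst thus differed in opposite directions. Chrd and Fstl3 made up 74.3 to 91.8% of the summed FPKM of the 6 antagonists in vehicle NP and 8.55 to 32.7% in vehicle AF. Antagonists that are not among the members do not enter this sum.

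Of the 6 SMADs that carry the signal, Smad1, a BMP SMAD (5.43 ± 0.878 in NP, 11.1 ± 1.61 in AF, SD, n = 5 each), and Smad3, a TGF-beta and activin SMAD (11.3 ± 2.72 and 23.4 ± 6.52), were lower in NP. Their log2 differences were -0.92 (limma adjusted p = 0.000208) and -0.96 (limma adjusted p = 0.00413). Smad9, a BMP SMAD at low level, was 3.42 ± 0.548 in NP and 2.44 ± 0.493 in AF (SD, n = 5 each; log2 difference 0.37, limma adjusted p = 0.0469). Its call was lost on leaving out any 1 library other than NP library 5 or AF library 10. Smad2, Smad4 and Smad5 were not called, with log2 differences of -0.08, 0.05 and 0.19. Of the inhibitory SMADs, Smad6 averaged 2.12 and 2.10 in NP and AF, and Smad7 at 5.98 and 8.54 (limma adjusted p = 0.978 and 0.0578). The transcriptional repressor Skil, which binds SMADs, was lower in NP (12.6 ± 2.21 and 19.5 ± 4.00, SD, n = 5 each; log2 difference -0.58, limma adjusted p = 0.0130), while its paralog Ski was not called (log2 difference 0.13).

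The ID proteins are inhibitors of basic helix-loop-helix factors and are widely used as BMP targets. Id3 (chr4:136143497-136145755) was 16.3, 13.0, 10.3, 10.5 and 12.6 in vehicle NP and 42.1, 25.0, 31.9, 16.5 and 29.8 in vehicle AF. The groups were separated by a narrow gap between NP library 1 and AF library 12 (log2 difference -1.11, SE 0.22, limma adjusted p = 0.00144). Id1 and Id2 were not called. Id1 averaged 41.5 ± 15.4 in NP and 40.8 ± 10.9 in AF, and Id2 averaged 125 ± 53.4 and 88.3 ± 10.7 (SD, n = 5 each). Id2 was the most abundant of the 3 by FPKM in both tissues.

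The comparison of NP with AF in MDL-800-treated mice shares no library with the one in vehicle-treated mice. There, 35 members were called again, 72.9% against 62.8% of all tested genes. Of these, 11 were higher in NP (background 25.6%) and 24 lower (background 37.2%). The groups did not overlap for 27 members, against 49.1% of tested genes. In both treatments 34 members were called in the same direction, 97.1% of each list, 10 higher and 24 lower. The filter on low values was common to both comparisons, and the 12 members that passed it through AF alone are among these 24. The counts and the agreement are therefore a description. Over all tested genes 8282 were called in the same direction in both treatments, 90.7% of the vehicle calls and 80.5% of the MDL-800 calls. Tgfb3 was called in vehicle-treated mice alone (log2 difference -0.33 under MDL-800, limma adjusted p = 0.0866). Ski was called under MDL-800 alone, at 0.53 (limma adjusted p = 0.0248), a call lost without NP library 18, NP library 20 or AF library 25. Bmp5 and Bmpr1a, called under MDL-800 at 0.71 (limma adjusted p = 0.0324) and 0.41 (limma adjusted p = 0.0346), each depended on single libraries in the same way. The call of Bmp5 was lost without NP library 15, 19 or 22 or AF library 28 or 30, and that of Bmpr1a without NP library 15, 18 or 20 or AF library 25 or 30. The 12 members called in neither treatment were the 3 TGF-beta receptors, Bmpr2, Acvr1, Smad2, Smad4, Smad5, Smad6, Smad7, Id1 and Id2.

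Levels under MDL-800 showed the same division of the ligands. Tgfb1 was 7.94, 15.7, 10.1, 6.15 and 11.8 in MDL-800 NP and 57.0, 87.6, 110, 63.0 and 67.1 in MDL-800 AF (log2 difference -2.80). Tgfb2 was 58.2, 107, 64.8, 50.4 and 38.0 in NP and 21.2, 20.8, 17.3, 18.2 and 8.72 in AF (log2 difference 1.80). Both pairs of groups were free of overlap. Acvr2a was 73.5, 71.2, 80.4, 87.3 and 87.3 in NP and 21.2, 12.6, 11.8, 18.8 and 20.6 in AF (log2 difference 2.20). For Bmp7 the NP values of 24.8, 24.1, 19.1, 25.6 and 19.3 stood above the AF values of 13.2, 3.06, 4.80, 6.04 and 4.17 (log2 difference 1.83). Bmp5 and Bmp7 made up 82.3 to 92.2% of the summed FPKM of the 10 member BMP and GDF ligands in MDL-800 NP and 8.12 to 34.6% in MDL-800 AF. Chrd and Fstl3 made up 82.1 to 90.9% of the summed FPKM of the 6 member antagonists in NP and 6.21 to 15.2% in AF.

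The comparison of MDL-800 with vehicle asked what the SIRT6 activator changed in each tissue. In NP, Ltbp3 was the one member called, 2.08% of the 48, against 0.250% of all tested genes and 0.232% in the upward direction. That background is itself unsteady, since the 41 genes called became 2 without vehicle library 3 or MDL-800 library 22 and 189 without vehicle library 6. It was 4 to 25 on leaving out any other single library. Ltbp3 was 11.4, 9.16, 12.3, 10.2 and 14.0 in vehicle NP and 17.1, 21.1, 20.6, 21.7 and 19.9 in MDL-800 NP. All 5 treated libraries lay above all 5 vehicle libraries, and the level rose from 11.4 ± 1.87 to 20.1 ± 1.81 (SD, n = 5 each; 1.76-fold; log2 difference 0.77, SE 0.112, 95% interval 0.52 to 1.02, limma adjusted p = 0.0360). In vehicle AF, Ltbp3 was 40.7, 16.7, 27.6, 14.9 and 26.7. The call was lost in 8 of 10 omissions of 1 library, at adjusted p of 0.0525 to 0.125, and was kept without vehicle library 6 or MDL-800 library 15. The log2 difference stayed between 0.70 and 0.84 in these omissions.

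**Figure D3:**
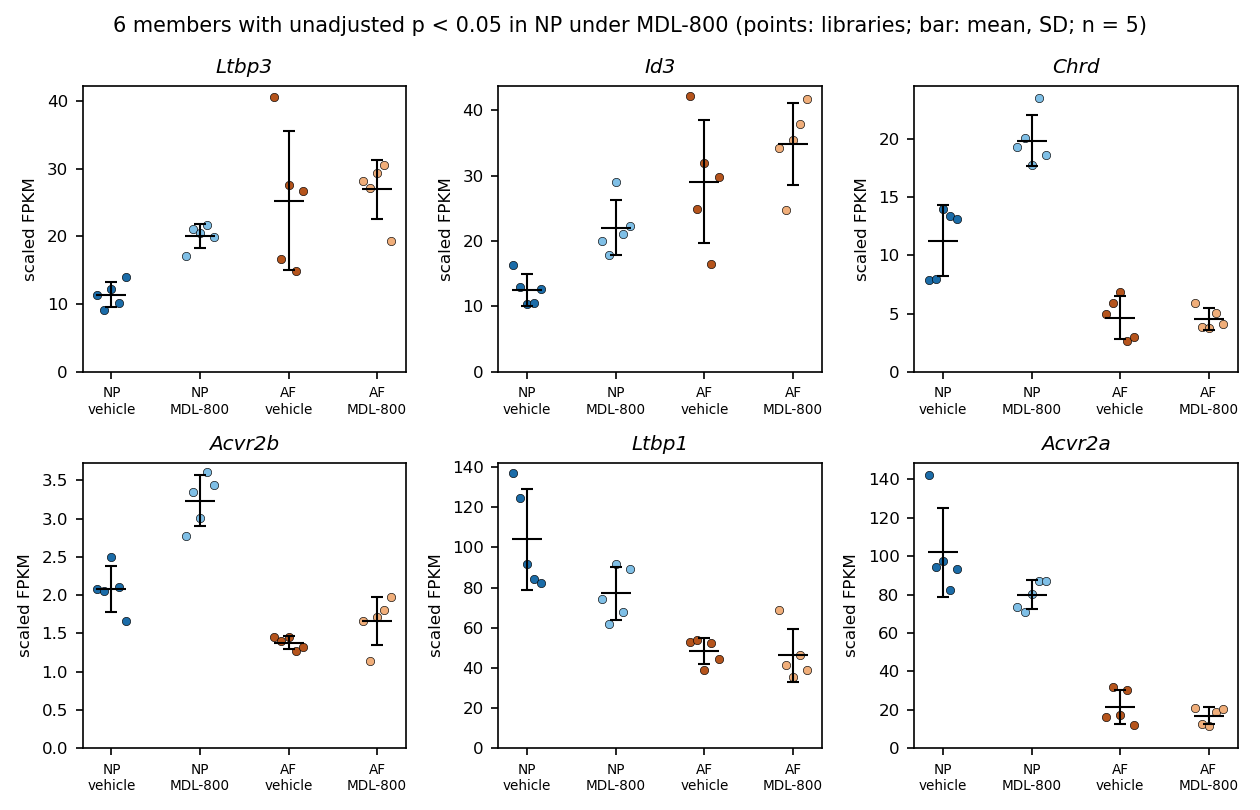
Scaled FPKM (y axis, linear, from 0) of Ltbp3, Id3, Chrd, Acvr2b, Ltbp1 and Acvr2a, 6 of the 9 members with an unadjusted limma p under 0.05 between MDL-800 and vehicle in NP, with a point for each library of the 4 groups and bars for the mean and SD of 5 libraries. For Ltbp3, Id3, Chrd and Acvr2b all 5 MDL-800 NP libraries lie above all 5 vehicle NP libraries, and Ltbp3 alone passed the adjusted threshold.

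A further 8 members had an unadjusted p under 0.05 in NP without being called, making 9 in all, 18.8% of the members against 14.1% of all tested genes. Members without overlap between the treatment groups were Ltbp3, Id3, Chrd and Acvr2b, 8.33% against 4.50%. Id3 was 20.0, 17.8, 29.1, 21.1 and 22.3 with MDL-800, above every vehicle NP library (log2 difference 0.77, limma adjusted p = 0.0637). Chrd was 19.3, 20.1, 17.8, 23.5 and 18.6 with MDL-800, likewise above the vehicle values given earlier (log2 difference 0.80, limma adjusted p = 0.0743). Acvr2b was 2.08, 2.05, 2.50, 2.10 and 1.66 with vehicle and 2.78, 3.35, 3.01, 3.61 and 3.44 with MDL-800 (log2 difference 0.46, limma adjusted p = 0.0820). These 3 are a transcription regulator, a BMP antagonist and a receptor, and each treated group stood clear of its control without passing the adjusted threshold. Some markers of the NP and of cartilage also had higher values with MDL-800 and others did not. Their part in these results was not tested. Of the 8 NP markers tested, limma called 0 between MDL-800 and vehicle in NP, but 3 had an unadjusted p under 0.05, T (1193 to 1701 scaled FPKM with vehicle, 1780 to 2328 with MDL-800), Krt19 (640 to 1442 and 1689 to 2355) and Krt8 (749.7 to 882.5 and 926 to 1243). The summed NP markers were 25616 to 30792 with vehicle and 27934 to 32850 with MDL-800. Of the 6 cartilage markers limma called 0, and 2 had an unadjusted p under 0.05 in NP, Col2a1 and Col11a2, with log2 differences of 0.71 and 1.12. The other markers of these lists did not share one direction in NP. The means of Car3 and Acan were higher with MDL-800. Those of Krt18 (177 with vehicle, 176 with MDL-800), Cd24a (3357 and 3330), Shh (4.71 and 2.68) and Col9a1 (2.13 and 1.94) were level or lower. The means of Car12, Noto, Col10a1 and Ihh were lower as well. Fstl3 was 36.1, 32.2, 28.2, 42.4 and 28.3 with MDL-800, its lowest library lying just under the highest vehicle libraries (log2 difference 0.44, limma adjusted p = 0.171). Ltbp1 was 74.6, 61.9, 91.8, 67.7 and 89.3 with MDL-800 (log2 difference -0.41, limma adjusted p = 0.299), and the vehicle libraries above that range were 1 and 2. Acvr2a had a log2 difference of -0.33 (limma adjusted p = 0.302) and overlapped between the groups. Smad6 was 2.53, 2.30, 2.18, 1.57 and 2.02 with vehicle and 3.04, 3.44, 2.47, 3.63 and 2.27 with MDL-800 (log2 difference 0.34, limma adjusted p = 0.274). Smad9 was 3.82, 3.63, 3.25, 2.54 and 3.87 with vehicle and 4.24, 4.48, 3.82, 4.34 and 4.11 with MDL-800 (log2 difference 0.24, limma adjusted p = 0.352). Ltbp1 made up 63.8 to 77.0% of the summed FPKM of the binding proteins in MDL-800 NP, below the range of 79.6 to 91.0% in vehicle NP. This share was chosen after the values had been seen and has no background over all genes. It was not computed again with the GC trend described below removed.

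Over all 48 members the NP differences were small, 25 positive and 23 negative, with a median of 0.013 beside -0.033 for all tested genes. None of the TGF-beta ligands had an unadjusted p under 0.05, nor had any of the BMP and GDF ligands, the activin subunits or the TGF-beta receptors. Tgfb1 was at 10.8 ± 4.06 with vehicle and 10.3 ± 3.67 with MDL-800, and Tgfb2 at 67.9 ± 22.3 and 63.6 ± 26.0 (SD, n = 5 each).

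**Figure D4:**
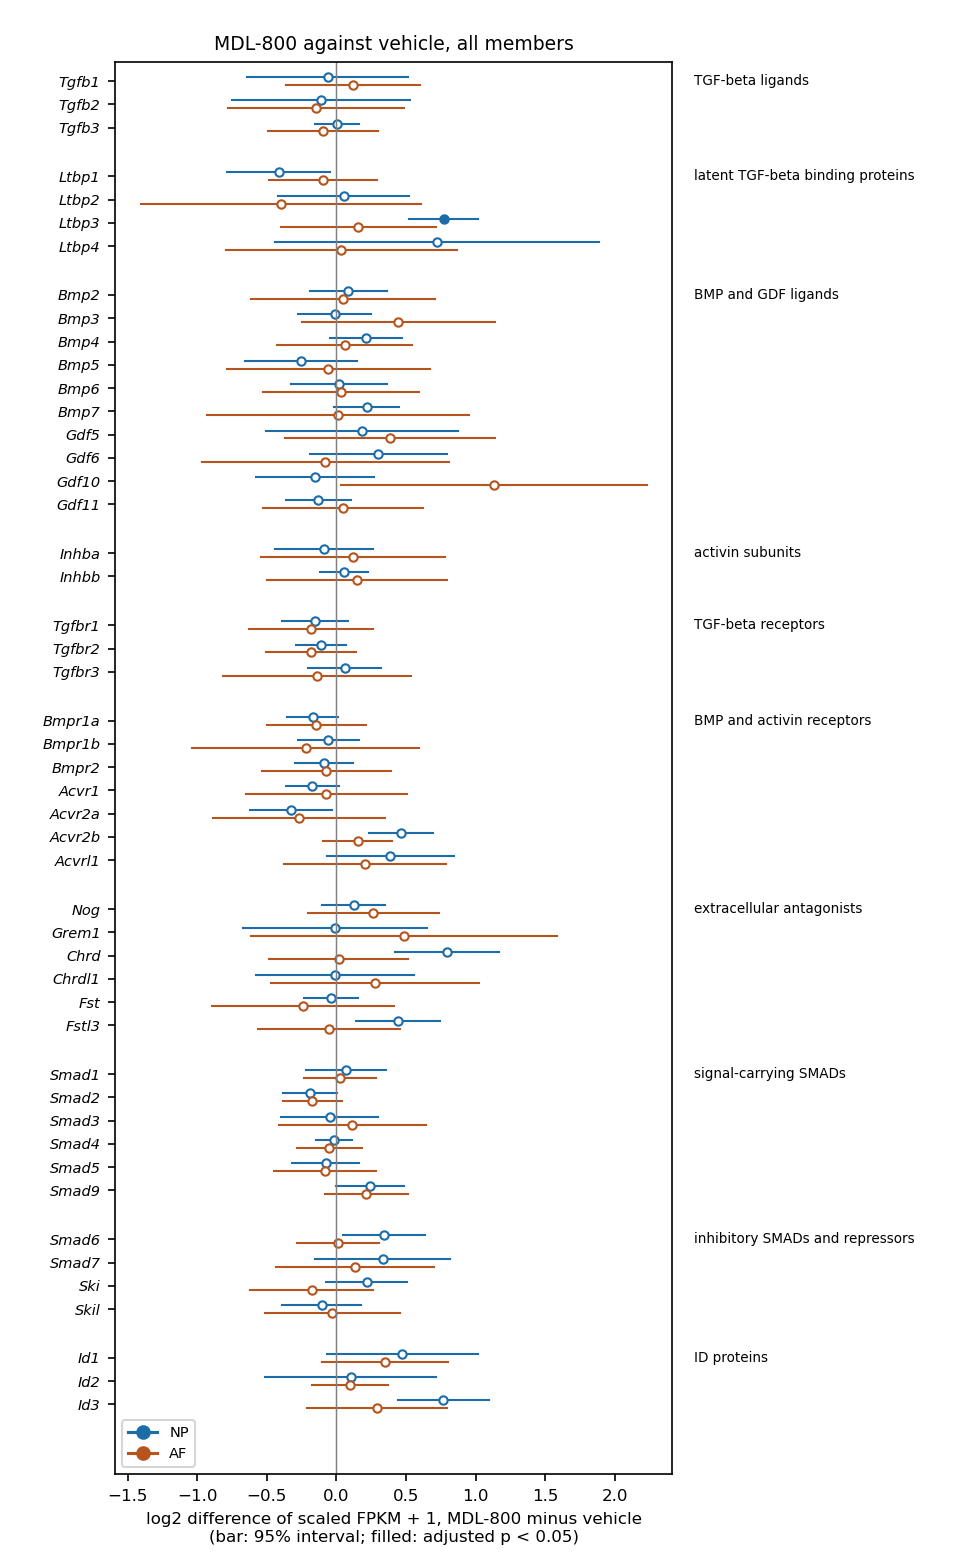
Difference of each member between MDL-800 and vehicle (x axis, log2 of scaled FPKM + 1, MDL-800 minus vehicle; bars are 95% intervals from limma, filled points have an adjusted p under 0.05) in NP (blue) and in AF (brown), grouped by role. In NP the interval of Ltbp3 runs from 0.52 to 1.02, and in AF Gdf10 has the largest difference, 1.13.

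The NP differences moved with the GC content of each member's longest transcript. Across the 48 members, Pearson's r was 0.63 and Spearman's rho 0.68, given as a description because the members share the same libraries. Of the 29 members above the median GC content of tested genes, 49.3%, 22 had a positive difference, against 3 of the 19 below it. The libraries themselves differed in this respect. The slope of a library's deviations on GC was -0.252 and -0.245 log2 units per 10 percentage points in vehicle NP libraries 1 and 2, between -0.017 and 0.026 in the other 3, and between 0.0554 and 0.121 in MDL-800 NP. When the GC trend was removed, r was 0.20 and rho 0.16, and Ltbp3 had a log2 difference of 0.54 (limma adjusted p = 0.0582). Without the libraries of low GC slope, which in NP are vehicle libraries 1 and 2, r was 0.46 and rho 0.47. There, Ltbp3 had a log2 difference of 0.68 and Id3 of 0.91 (limma adjusted p = 0.0919 for both), Chrd of 0.52 (limma adjusted p = 0.110) and Acvr2b of 0.46 (limma adjusted p = 0.253). Ltbp1 was then at -0.17 and Acvr2a at -0.19.

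**Figure D5:**
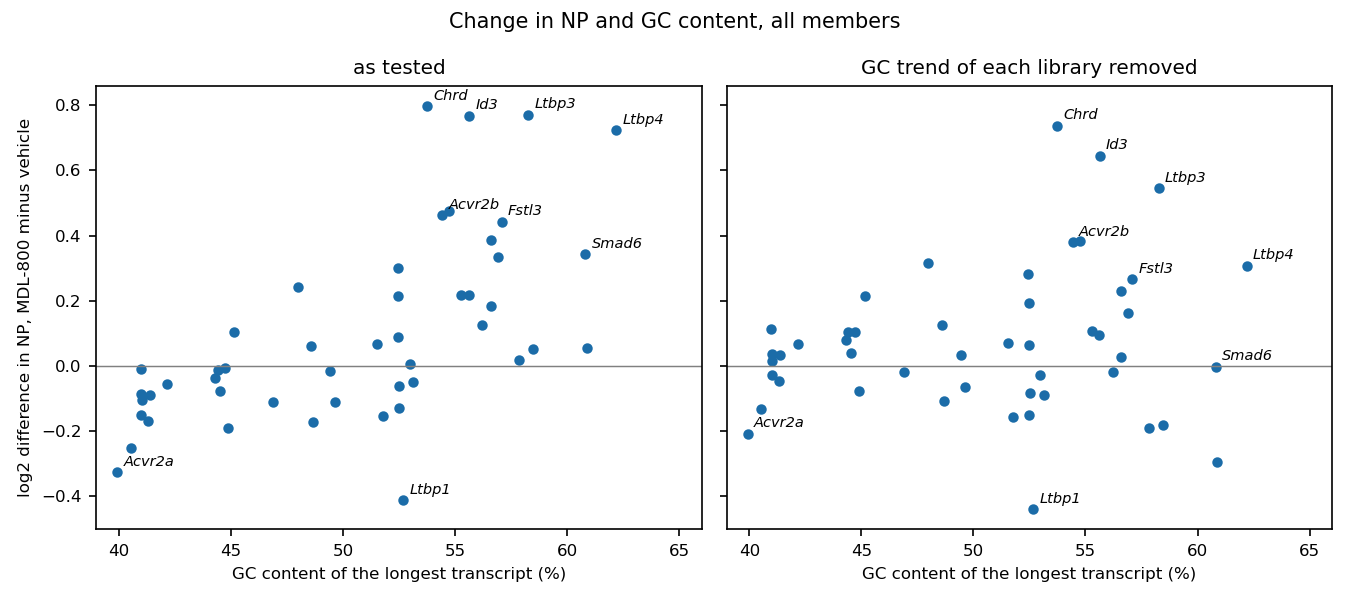
Log2 difference between MDL-800 and vehicle in NP (y axis) against the GC content of the longest transcript in percent (x axis), 1 point per member, as tested (left) and with the GC trend of each library removed (right). Ltbp3, Chrd and Id3 lie above 0 and Acvr2a and Ltbp1 below it in both panels, and Ltbp3 moves from 0.77 to 0.54.

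In AF, 0 members were called between MDL-800 and vehicle with limma, against 0% of all tested genes. Gdf10 was the one member with an unadjusted p under 0.05, 1.65% of all tested genes passing that threshold. It was 12.6, 8.08, 13.7, 11.0 and 40.6 with vehicle and 15.2, 31.5, 60.8, 68.4 and 19.2 with MDL-800, and the groups overlapped through vehicle library 13 (log2 difference 1.13, SE 0.50, limma adjusted p = 1.00). Ltbp3 was 28.2, 27.2, 29.4, 30.6 and 19.4 in MDL-800 AF, within the range of the vehicle AF libraries. Chrd had means of 4.66 ± 1.83 and 4.54 ± 0.909 with vehicle and MDL-800, and Id3 had means of 29.1 ± 9.40 and 34.8 ± 6.29 (SD, n = 5 each).

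Whether the effect of MDL-800 differed between the tissues was tested as an interaction over all 20 libraries. With limma 0 members were called, and 4 had an unadjusted p under 0.05, against 3.73% of all tested genes. These were Chrd (difference of log2 differences, NP minus AF, 0.78), Gdf10 (-1.29), Acvr2b (0.31) and Ltbp3 (0.61), each with a limma adjusted p of 1.00. The rise of Ltbp3 in NP was therefore not shown to differ from its change in AF.

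Other genes of the pathway were followed through a list that is separate from the 48 members. Of 75 such genes found by symbol, 56 were tested, and between vehicle NP and vehicle AF 11 were higher and 25 lower, the remaining 20 not being called. The called genes were 64.3% of the 56, beside 55.7% of all tested genes. Id4, the fourth ID gene, averaged 316 ± 48.0 in vehicle NP and 64.4 ± 32.1 in vehicle AF (SD, n = 5 each; log2 difference 2.42), opposite to Id3. Cd109, a TGF-beta co-receptor that dampens signalling, averaged 328 ± 40.3 and 104 ± 23.6, Twsg1, a chordin partner, averaged 203 ± 19.4 and 92.0 ± 22.6, and Sostdc1, a secreted BMP antagonist, averaged 90.2 ± 15.4 and 25.0 ± 8.37 (SD, n = 5 each). Sostdc1 is outside the 6 member antagonists, and its vehicle NP mean exceeded every vehicle NP value of those 6. The antagonist shares given above therefore describe the members alone. Of the 18 further extracellular modulators tested, 13 were lower in NP. Among them were Thbs1, an activator of latent TGF-beta (6.70 ± 5.10 and 271 ± 114), and Fbn1, the fibrillin that anchors latency proteins (0.893 and 32.5 on average). Of 8 tested transcripts widely used as targets, 1 was higher in NP (Id4), 4 were lower and 3 were not called. Over all tested genes 21.8% were higher and 33.9% lower. Among the 4 lower targets were Ctgf (49.5 and 245 on average) and Tgfbi (9.28 and 154). Under MDL-800, 12 of the 56 were higher in NP and 26 lower, 67.9% beside 62.8%.

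Between MDL-800 and vehicle, limma called 1 of these 56 genes in NP and 0 in AF, with unadjusted p under 0.05 for 12 (21.4% beside 14.1% of all tested genes) and 1 (1.79% beside 1.65%). Pmepa1, a TGF-beta-induced inhibitor of SMAD signalling, rose in NP from 10.2 ± 2.60 to 21.3 ± 1.11 (SD, n = 5 each; log2 difference 1.03, SE 0.147, limma adjusted p = 0.0360), and averaged 25.6 and 27.6 in vehicle and MDL-800 AF. Without vehicle NP library 3 or MDL-800 NP library 22, limma called 0 genes higher in NP, so the call of Pmepa1 was lost there. Its result in the other alternatives is not given here.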

How the data were processed

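RNA was sequenced from 20 libraries of dissected NP and AF, as stranded total RNA depleted of ribosomal RNA, per the labels' protocols. The authors deposited 1 table of FPKM per gene with 2 decimals. Alignment used STAR 2.7.11b and the genome build mm10, per the submitters' processing notes. The program that assigned reads to genes, its annotation, its use of strand and its treatment of multiply mapped reads are not given in the sources used here, so FPKM of genes with overlapping or near-identical copies are less certain.

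FPKM were divided by a median-ratio factor over the 11308 genes that reached 1 FPKM in every library (0.933 to 1.06) and taken as log2(value + 1). Tests covered the 16383 genes reaching 1 FPKM in 5 libraries or more, with limma 3.58.1 (R 4.3.3, mean-variance trend, two-sided, Benjamini-Hochberg adjustment over all genes), each comparison on its own 2 groups and the interaction on all 4. No count model was used. Coordinates, exon GC content and overlaps came from GENCODE M21, matched for 51596 gene IDs. Depth was estimated from 6641 single-exon genes of 400 to 1200 nucleotides, whose values fell on steps of whole reads within 0.15 reads in 79.8 to 84.9% of cases. Python 3.11.15, pandas 2.3.3, scipy 1.17.1 and matplotlib 3.10.9 were used. The fit was tested on simulated data.

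Per-library values are given for up to 24 called members by largest difference between the tissues, and in the treatment comparisons for members with an unadjusted p under 0.05. The members and lists were chosen with earlier results of these data known. Alternatives were other pseudocounts, filters, scalings and fits, removal of the GC trend and omission of each library. A replicate block, the omission of NP vehicle library 6 with AF vehicle library 12, and the omission of 4 libraries of low GC slope (NP vehicle 1 and 2, AF vehicle 12, AF MDL-800 27) were added after seeing the data.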

Additional observations from a re-analysis of the deposited data

Results flagged for a closer look

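For 29 members the 4 groups of 5 libraries were each searched for a library far from the others by Dixon's ratio on the log2(scaled FPKM + 1) scale, with a critical value of 0.710. Of 116 groups, 6 held such a library, and chance gives about 1 in 20. On the linear scale there were 7. In MDL-800 AF library 30, Tgfb2 was 8.72, below 17.3 to 21.2 in the other 4, and Ltbp3 was 19.4, below 27.2 to 30.6. In vehicle AF library 9, Ltbp4 was 7.55, below 20.2 to 29.2, and Bmp2 was 3.38, below 6.26 to 7.05. In vehicle NP library 5, Ltbp2 was 0.582, below 1.96 to 2.52. In vehicle NP library 6, Gdf6 was 0.563, above 0.0197 to 0.132. AF library 9 was also the AF library with the highest summed NP markers, 15088 scaled FPKM.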

How the results depend on the processing

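The number of members called between NP and AF ranged from 33 to 40 over 24 alternatives in vehicle-treated mice and from 29 to 37 over 23 in MDL-800-treated mice. In neither did a called member change direction. Scaling moved the split. With vehicle, 10 higher and 25 lower became 17 and 23 with upper-quartile scaling and 13 and 22 with quantile normalization, and the median of all genes moved from -0.083 to 0.22 and 0.20. The share of all tested genes called higher and lower then turned from 21.8% and 33.9% to 39.5% and 24.7%, and to 39.5% and 24.0%. With MDL-800, 11 and 24 became 17 and 20, and 13 and 21, and that median moved from -0.084 to 0.20 and 0.21, with all-gene shares of 41.9% and 27.2%, and 42.2% and 26.2%, in place of 25.6% and 37.2%. With vehicle, Tgfb3 and Skil were lost under both of these scalings, and Bmp6 under quantile normalization. Smad9 was lost in 8 of 10 omissions with vehicle. Without AF library 9 the count was 38, with Tgfbr1, Tgfbr3, Smad7 and Acvr1 gained. Without the libraries of low GC slope, 33 members were called with vehicle, Smad3, Smad9 and Acvr2b being lost. Id3 under MDL-800 was lost with upper-quartile scaling (-0.30, limma adjusted p = 0.0948) and with the replicate block (-0.46, limma adjusted p = 0.201).

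In NP, the count for MDL-800 against vehicle was 1. It was 0 with no filter on low values (Ltbp3 limma adjusted p = 0.0859), with all 4 groups in the fit (0.130), with the GC trend removed and without the libraries of low GC slope, 2 with array weights (Id3 at 0.83, limma adjusted p = 0.0498), and 0 to 1 in the omissions of 1 library. With the GC trend removed Smad6 turned to -0.0029. For these alternatives the cause was not tested. In AF the count was 0 in 23 alternatives, and in the interaction 0 in 33.

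The column headers carry a second number shared by NP and AF libraries. Deviations of same-numbered libraries correlated at -0.18 to 0.29 over 5 vehicle pairs and at -0.18 to 0.17 over 3 MDL-800 pairs, so the numbers were not shown to pair them. With these numbers as a replicate block, 34 members were called with vehicle, 29 with MDL-800 and 0 in the interaction. The FPKM scale and its 2 decimals limit what can be said of members near 0 in NP.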
